A study of Mus musculus with 5 samples.

Results

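Mitotic entry genes encode the kinase CDK1, the cyclins that activate it, and the enzymes and the transcription factor that set when it acts. The genes chosen were Cdk1, Ccna2, Ccnb1, Ccnb2, Cdc25a, Cdc25b, Cdc25c, Wee1 and Foxm1, matched by symbol in the platform annotation of the array. Of these 9 genes, 8 had a named probe and all 8 had a value on every array, among 11191 genes tested in all. Ccnb1, the gene of cyclin B1, had no probe under its name in that annotation and is not analysed here. The other 8 genes had 13 probes, of which 12 were measured on all 5 arrays.

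N18 is a mouse neuroblastoma cell line. Cells infected with an adenovirus that carries the Dyrk1a coding sequence (pAd-Dyrk1a) were set against cells infected with the control adenovirus (pAd-Track-CMV), so both sides of each comparison carried virus. DYRK1A is a protein kinase whose human gene lies on chromosome 21, and the comparison asks which transcripts differ when more of it is made. Total RNA of 1 Dyrk1a sample and 1 control sample was hybridised to each of 5 two-colour arrays. The Dyrk1a RNA was labelled with Cy5 on replicates 1, 2 and 3, and with Cy3 on replicates 4 and 5. The virus dose and the time after infection are not given in the sources used here.

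CDK1 pairs with A- and B-type cyclins and drives a cell from G2 into mitosis. WEE1 holds it inactive by adding inhibitory phosphates, the CDC25 phosphatases take them off, and FOXM1 switches on many of the genes used in G2 and mitosis, cyclin B and CDC25B genes among them. DYRK1A is known as a kinase that favours exit from the cell cycle, in part through the DREAM complex, which binds a promoter element called CHR and keeps such genes low in resting cells.

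RefSeq promoter windows, from 250 bases before to 50 bases after the annotated start in build GRCm38.p6, were found for 5 of the 9 genes. The windows below are those of the 4 genes that also have a probe. The fitted log2 ratios of these genes were -0.30 for Cdk1, -0.23 for Ccnb2, -0.099 for Cdc25b and -0.073 for Cdc25a. Capitals mark the CHR element, searched as TTTGAA or TTCGAA, and the CCAAT box, searched as CCAAT, on both strands. A CCAAT box on the opposite strand reads ATTGG, and no match of one motif overlapped a match of the other.
Cdk1, chr10:69352863-69353162, minus strand: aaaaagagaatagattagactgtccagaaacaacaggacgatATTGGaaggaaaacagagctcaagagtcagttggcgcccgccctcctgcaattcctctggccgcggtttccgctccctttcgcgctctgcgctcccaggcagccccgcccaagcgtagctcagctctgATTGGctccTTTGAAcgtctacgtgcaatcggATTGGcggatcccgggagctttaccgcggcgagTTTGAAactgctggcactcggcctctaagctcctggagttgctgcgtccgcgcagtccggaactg
Ccnb2, chr9:70421505-70421804, minus strand: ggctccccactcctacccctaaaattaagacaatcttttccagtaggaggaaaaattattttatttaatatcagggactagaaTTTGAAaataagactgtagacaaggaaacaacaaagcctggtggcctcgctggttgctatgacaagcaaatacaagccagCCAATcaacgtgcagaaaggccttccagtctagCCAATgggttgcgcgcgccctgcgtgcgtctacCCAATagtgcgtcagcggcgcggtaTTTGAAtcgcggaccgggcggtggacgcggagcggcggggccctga
Cdc25b, chr2:131186698-131186997, plus strand: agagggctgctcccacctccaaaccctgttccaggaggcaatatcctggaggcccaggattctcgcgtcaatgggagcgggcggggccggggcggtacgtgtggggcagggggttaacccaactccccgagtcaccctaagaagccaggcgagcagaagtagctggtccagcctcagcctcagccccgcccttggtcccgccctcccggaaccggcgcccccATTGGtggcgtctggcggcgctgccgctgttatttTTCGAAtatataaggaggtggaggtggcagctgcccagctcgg
Cdc25a, chr9:109875329-109875628, plus strand: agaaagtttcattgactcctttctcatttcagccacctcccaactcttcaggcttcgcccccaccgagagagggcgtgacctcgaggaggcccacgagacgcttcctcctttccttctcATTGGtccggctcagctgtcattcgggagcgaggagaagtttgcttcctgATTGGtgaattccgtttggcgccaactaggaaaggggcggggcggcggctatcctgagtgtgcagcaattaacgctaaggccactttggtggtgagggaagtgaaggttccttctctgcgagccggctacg
The windows of Cdk1 and Ccnb2 each held 2 CHR matches and 3 CCAAT boxes. Cdc25b held 1 CHR match and 1 CCAAT box, and Cdc25a held 0 CHR matches and 2 CCAAT boxes. The window of Ccnb1, which has no probe and is not printed, also held 0 CHR matches and 2 CCAAT boxes. No CHR spelling other than TTTGAA and TTCGAA was searched, so 0 matches does not show that a promoter lacks the element. Of 32851 windows in the table, 19.2% held a CHR match, 37.4% a CCAAT box, and 2.31% a CHR match together with 2 or more CCAAT boxes. A match is a stretch of letters and not a measured binding site. Whether the matches bear on the ratios was not tested, and Ccna2, Cdc25c, Foxm1 and Wee1 had no window.

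All values are log2 ratios, Dyrk1a over control vector, centred on each array's median. The log base was not stated and was read as 2 from the range of the values. Ratios hold no expression level, so the genes are compared by how far their ratios lie from 0, and markers of the labelled cell line could not be checked for their level. The Dyrk1a reference probe ran from 1.93 to 3.02 over the arrays, above 0 on 5 of 5, with a fitted log2 ratio of 2.46 (SE 0.12). Another Dyrk1a probe, measured on 4 arrays, had a mean of -0.058. Replicate 2 had a wider spread over genes than the others, with an interquartile range of 0.289 against 0.145 to 0.166. Neuroblast markers had fitted log2 ratios above 0 for 7 of 7 tested genes, where 45.1% of all genes were below 0. Their median was 0.13, or 0.077 without replicate 2, and 2 of the 7 were above 0 on all 5 arrays. Of the markers named on the array, 1 of 9 for glia, 5 of 10 for fibroblasts and smooth muscle and 1 of 7 for immune cells had a value on every array, with fitted log2 ratios from -0.044 to 0.13, and their part in the results was not tested.

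The genes of the kinase, its cyclins and FOXM1 had fitted levels 1.17- to 1.25-fold lower with Dyrk1a, and those of the CDC25 phosphatases and WEE1 lay nearer to no difference. All 8 genes had a fitted log2 ratio below 0, as did 45.1% of all genes tested, and their median was -0.16, a 1.12-fold lower level, against 0.0080 over all genes. Of the 8, 5 were below 0 on all 5 arrays (Cdk1, Ccna2, Ccnb2, Cdc25b and Foxm1), where 6.32% of all genes were. In limma, after Benjamini-Hochberg adjustment over 14307 features, 0 of the 8 passed an adjusted p of 0.05, as did 0% of all genes in the lower direction and 0.00894%, which is Dyrk1a alone, in the higher. Under an adjusted p of 0.1 there were 3, Cdk1, Foxm1 and Ccna2, where 0.894% of all genes were lower. Cdk1 enters these counts by its 1 probe measured on all 5 arrays. At an unadjusted p under 0.05 the same 5 were lower, against 6.38% of all genes, and 0 were higher, against 5.25%. In bulk RNA, fewer cells in G2 or mitosis and less RNA in each such cell cannot be told apart.

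**Figure D1:**
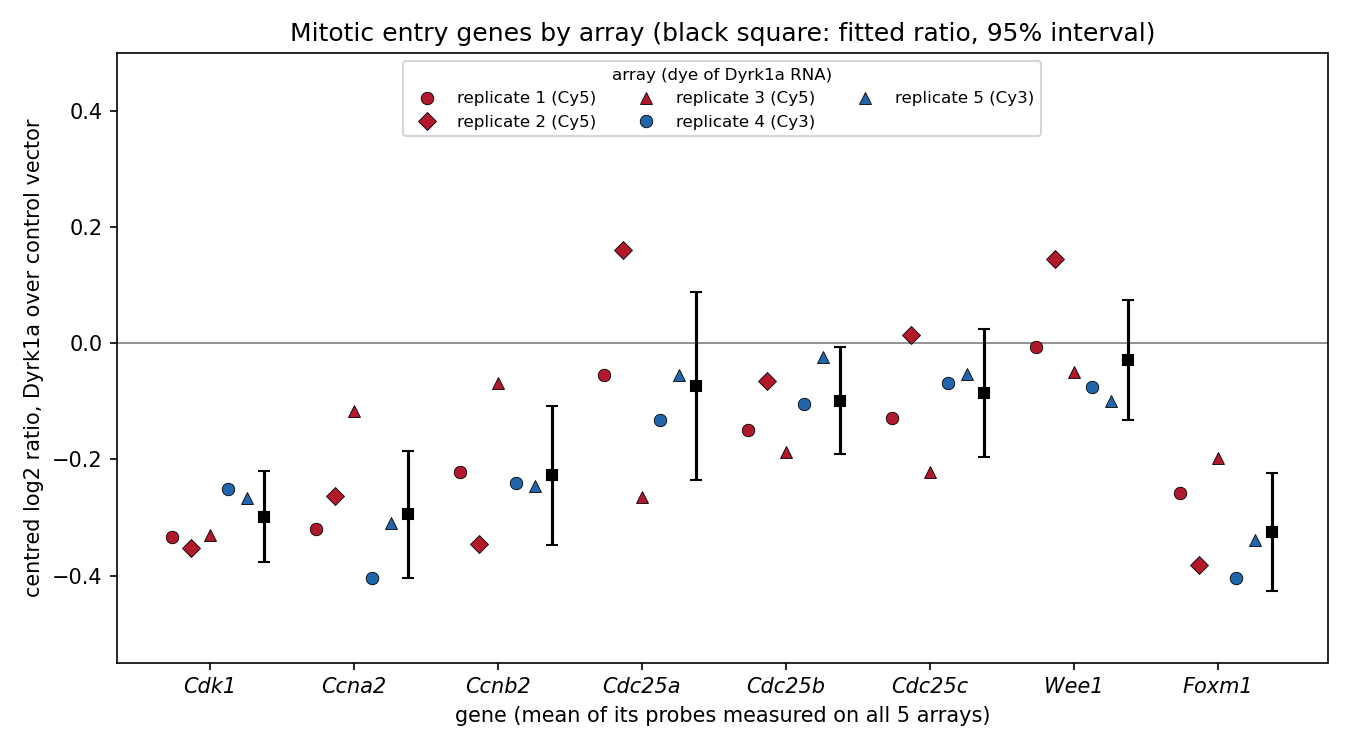
Centred log2 ratios of Dyrk1a over control vector (y axis) for the 8 mitotic entry genes (x axis). Coloured points are the 5 arrays, red with Dyrk1a RNA in Cy5 and blue in Cy3, and black squares with bars are fitted ratios with 95% intervals. The 5 points of Cdk1, Ccna2, Ccnb2, Cdc25b and Foxm1 lie below 0, while replicate 2 lies above 0 for Cdc25a, Cdc25c and Wee1.

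The absence of calls depended on the processing, the removal of replicate 2 included. Each setting that called a mitotic entry gene reduced the pull of replicate 2, so these settings are not separate evidence. With arrays scaled to the same spread, limma called 4 of the 8 genes lower (Cdk1, Ccna2, Ccnb2 and Foxm1), where 1.56% of all genes were called lower. Quantile normalization called the same 4, with 1.7% of all genes. Array weights, which were 0.15 for replicate 2 and 0.58 to 3.74 for the others, called 6, adding Cdc25b and Cdc25c, with 6.41% of all genes. Without replicate 2 Cdk1, Ccna2 and Foxm1 were called, with 2.5% of all genes, and 8 of the 8 genes were below 0 on every remaining array, as were 10.3% of all genes. Without replicate 2 and with no dye effect in the model, a setting chosen after seeing the data, 0 were called, but so were 0% of all genes in that direction, and Dyrk1a itself was not called there (limma adjusted p = 0.129).

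Cdk1, the catalytic subunit, had the tightest values of the group. Its probe measured on all arrays (probe 24166) read -0.33, -0.35 and -0.33 on the centred log2 scale in replicates 1 to 3, and -0.25 and -0.27 in replicates 4 and 5. They averaged -0.31 ± 0.045 (SD, n = 5), with every array below 0 and the arrays with Dyrk1a in Cy5 a little lower than those with it in Cy3. In the order of SDs over arrays, Cdk1 stood at percentile 4.88 of all genes tested. The fitted log2 ratio was -0.30 (SE 0.032, 95% interval -0.38 to -0.22), a 1.23-fold lower level, with an adjusted p of 0.0605 in limma. It was the 92nd lowest of the 11191 genes.

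A second Cdk1 probe (probe 20469), annotated to the same transcript accession, pointed the other way. It was measured on 3 arrays, where it read 0.089, 0.065 and 0.17 (replicates 1, 2 and 4, centred log2 ratio), and was blank on the others. Each of the 3 values was above 0 where the other probe was below 0 on the same array. No source used here says why it was blank on replicates 3 and 5. Averaging whichever Cdk1 probes were measured on an array gave a fitted log2 ratio of -0.18, and the limma adjusted p over the 15 other settings ran from 0.00116 to 0.845.

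Ccna2 encodes cyclin A2, the partner of CDK2 in S phase and of CDK1 in G2. On the centred log2 scale it stood at -0.32, -0.26 and -0.12 in replicates 1 to 3, and at -0.40 and -0.31 in replicates 4 and 5. All 5 arrays were below 0, with replicate 3 the nearest to it. Its fit gave a log2 ratio of -0.29 (SE 0.044, 95% interval -0.40 to -0.19), a 1.23-fold lower level, and the limma adjusted p was 0.0903. Over the other settings the fitted log2 ratio ran from -0.34 to -0.27 and the adjusted p from 0.0018 to 0.991.

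Ccnb2 encodes cyclin B2, a B-type cyclin that binds CDK1. By array its centred log2 ratios were -0.22, -0.35 and -0.068 in replicates 1 to 3 and -0.24 and -0.25 in replicates 4 and 5. Replicate 3 was again the nearest to 0, and replicate 2 the lowest. In limma the gene was at a log2 ratio of -0.23 (SE 0.049, 95% interval -0.35 to -0.11), a 1.17-fold lower level, with an adjusted p of 0.172. Without replicate 2 the fitted log2 ratio was -0.19.

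Foxm1 had the lowest fitted ratio of the group. Its single probe read -0.26, -0.38 and -0.20 in replicates 1 to 3, and -0.40 and -0.34 in replicates 4 and 5, as centred log2 ratios. Every array was below 0, with means of -0.28 on the Cy5 arrays and -0.37 on the Cy3 arrays. Fitted over the arrays, the log2 ratio was -0.33 (SE 0.041, 95% interval -0.43 to -0.22), a 1.25-fold lower level and the 64th lowest of all genes, with a limma adjusted p of 0.0762. The fitted intervals of Foxm1, Cdk1, Ccna2 and Ccnb2 overlapped, and differences between these genes within arrays were not tested.

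The CDC25 phosphatase genes had fitted ratios nearer to 0. Cdc25a, whose enzyme acts at the G1/S step as well as at mitosis, had a gene mean of -0.055, 0.16 and -0.26 in replicates 1 to 3 and of -0.13 and -0.055 in replicates 4 and 5. Replicate 2 was above 0 and the other 4 arrays below. Fitted, Cdc25a was at a log2 ratio of -0.073 (95% interval -0.24 to 0.089, limma adjusted p = 0.757). Its probes had fitted log2 ratios of -0.066 and -0.078, and replicate 2 stood at 0.31 on the first and at 0.011 on the second.

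Cdc25c, the family member named for its part in the G2/M step, had gene means of -0.13, 0.014 and -0.22 in replicates 1 to 3 and of -0.068 and -0.053 in replicates 4 and 5. Replicate 2 alone was above 0. Fitted, Cdc25c was at a log2 ratio of -0.086 (95% interval -0.20 to 0.024, limma adjusted p = 0.564). Its probes had close fitted log2 ratios, -0.092 and -0.079, although replicate 2 was at 0.22 on one and at -0.19 on the other. A gene mean of this size therefore hides values of opposite sign on that array.

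Cdc25b, which encodes the phosphatase that starts CDK1 activation at the centrosome, had 3 probes annotated to 1 transcript accession, and they did not move alike. Probe 10684 read -0.49, -0.74 and -0.55 on the Cy5 arrays (those with Dyrk1a RNA in that dye) and 0.0035 and 0.13 on the Cy3 arrays, as centred log2 ratios. The 2 orientations did not overlap, which was also so for probe 34192 below, whose dye effect did not pass the threshold (limma adjusted p = 0.34). For probe 10684 the dye effect in limma was -0.33 (adjusted p = 0.0367 over all probes tested one by one). The share of all single probes with a dye effect is not given here. Fitted as gene means, 0 of the 8 genes had a dye effect past the threshold, where 1.33% of all genes had one. Probe 15751 had 0.38 in replicate 2 and -0.29 to -0.065 on the other arrays. Probe 34192 read 0.18, 0.17 and 0.054 on the Cy5 arrays and -0.026 and -0.056 on the Cy3 arrays. The fitted log2 ratios of the 3 probes were -0.26, -0.080 and 0.049, a range of 0.31. Among 4211 genes with several complete probes the median range was 0.061, and Cdc25b stood at percentile 99.1.

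Averaged over its probes, Cdc25b stood at -0.15, -0.066 and -0.19 in replicates 1 to 3, and at -0.10 and -0.024 in replicates 4 and 5. The mean was below 0 on all 5 arrays, although no probe of the gene was below 0 on all of them. The fitted log2 ratio was -0.099 (95% interval -0.19 to -0.0071, limma adjusted p = 0.415). Tested on its own, probe 10684 had a limma adjusted p of 0.163. Across genes, probes of opposite fitted sign were found in 40.5% of those with several complete probes.

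**Figure D2:**
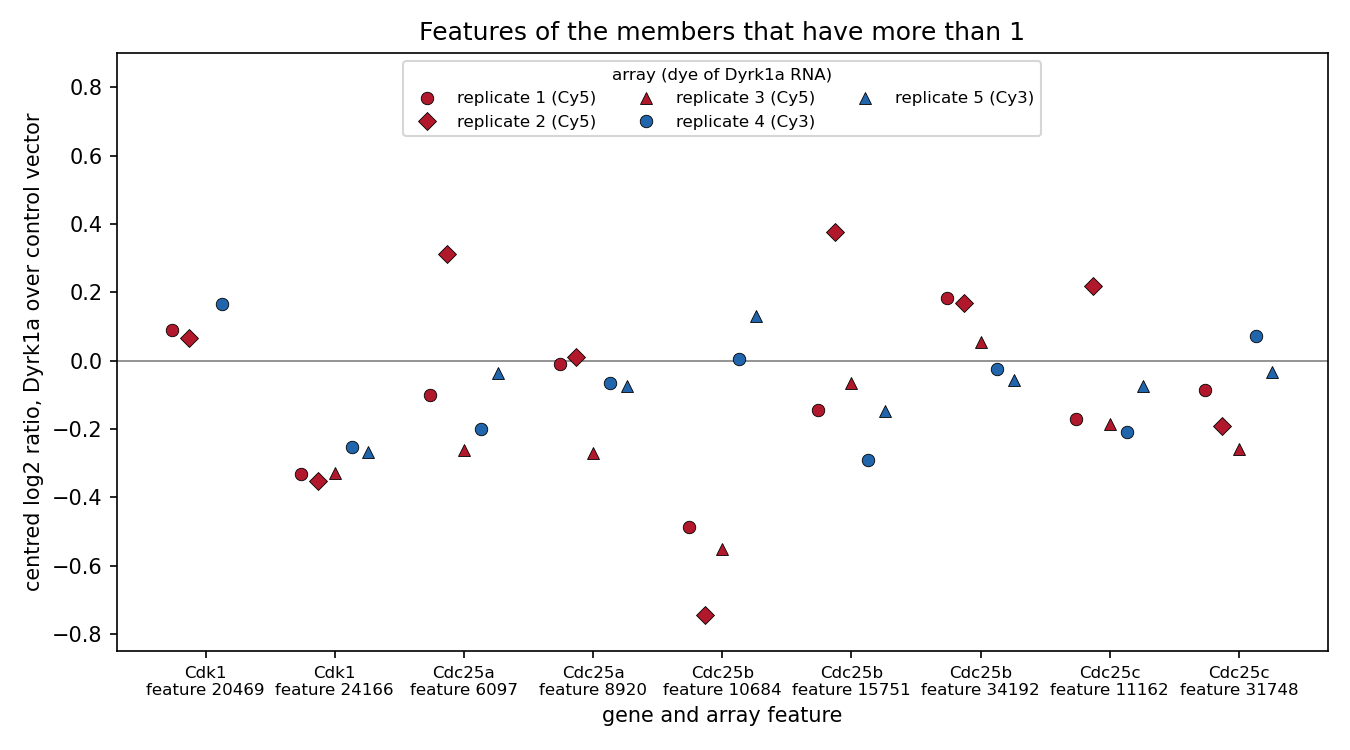
Centred log2 ratios of Dyrk1a over control vector (y axis) for each array feature, or probe, of the genes that have more than 1 (x axis). Points are arrays, red with Dyrk1a RNA in Cy5 and blue in Cy3. The 3 measured values of Cdk1 probe 20469 lie above 0 and those of probe 24166 below, and Cdc25b probe 10684 separates by dye, at -0.74 to -0.49 in Cy5 and 0.0035 to 0.13 in Cy3.

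Wee1, the inhibitory kinase of CDK1, was the gene of the group nearest to 0. Its probe read -0.0060, 0.15 and -0.049 in replicates 1 to 3, and -0.076 and -0.10 in replicates 4 and 5. Replicate 2 was above 0 and the others below, replicate 1 only just. Fitted, Wee1 was at a log2 ratio of -0.029 (SE 0.042, 95% interval -0.13 to 0.075, limma adjusted p = 0.864). A change within that interval could not be told from 0 with 5 arrays.

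By gene means, the CDK1 and cyclin genes lay apart from the CDC25 genes on most of the arrays. The medians of Cdk1, Ccna2 and Ccnb2 were -0.32, -0.35, -0.12, -0.25 and -0.27 in replicates 1 to 5. Those of Cdc25a, Cdc25b and Cdc25c were -0.13, 0.014, -0.22, -0.10 and -0.053. On 4 arrays the gene means of the CDK1 and cyclin genes were all lower than those of the CDC25 genes. On replicate 3 the groups overlapped, with the CDC25 median the lower one. Single probes did not keep this split. Cdc25b probe 10684 read -0.49 and -0.74 in replicates 1 and 2, lower than Cdk1, Ccna2 and Ccnb2 there. Cdc25b probe 15751 read -0.29 in replicate 4, lower than Cdk1 and Ccnb2. Cdk1 probe 20469, not part of the gene mean, read 0.089 in replicate 1 and 0.17 in replicate 4. Both values were above the highest CDC25 gene means there, -0.055 and -0.068. This grouping by role was drawn up with the values known, and no test was made of it.

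Other genes of the mitotic entry network were taken from lists by role, and 0 genes of these lists passed the limma threshold in either direction. Among CDK1 partners and the CDK-activating kinase, 4 of 6 tested genes were below 0, with a median of -0.062, or -0.11 without replicate 2. The small CDK-binding subunits had the smallest p, with a fitted log2 ratio of -0.40 (SE 0.057) for Cks2 and of -0.24 (SE 0.036) for Cks1b, each below 0 on 5 of 5 arrays. The orientation means lay apart for both genes, in opposite directions. Cks2 averaged -0.18 on the Cy5 arrays and -0.62 on the Cy3 arrays, and Cks1b -0.38 and -0.11. Neither dye effect passed the threshold (limma adjusted p = 0.127 for Cks2 and 0.142 for Cks1b). Cdk7, the activating kinase itself, was at 0.058 (SE 0.046).

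Inhibitors of CDK1 and CDC25, with the checkpoint kinases, were below 0 for 8 of 9 tested genes, with a median of -0.075. Pkmyt1, which encodes the membrane-bound partner of WEE1 in holding CDK1 inactive, was at -0.23 (SE 0.044), below 0 on 5 of 5 arrays, where Wee1 was at -0.029. Atr, the replication stress kinase, was at -0.21 (SE 0.051). Gadd45g, a stress-induced gene, was at -0.10 (SE 0.033) and followed the dye, with means of -0.30 on the Cy5 and 0.096 on the Cy3 arrays, for which limma gave a dye effect of -0.20 (adjusted p = 0.0403).

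The switch that feeds CDK1 activation, made of polo kinase, Aurora A and the Greatwall pathway against the phosphatase PP2A, was mixed. Of 11 tested genes 6 were below 0, with a median of -0.035, or -0.0054 without replicate 2. Aurka, the gene of Aurora A, was at -0.33 (SE 0.045) and Plk1, the polo kinase gene, at -0.27 (SE 0.039), both below 0 on 5 of 5 arrays. Aurka averaged -0.56 on the Cy5 arrays and -0.10 on the Cy3 arrays, and limma put its dye effect at -0.23 (adjusted p = 0.0703). Ppp2r2d, a regulatory subunit of PP2A, was at -0.13 (SE 0.032), with orientation means of -0.27 and -0.0018.

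FOXM1's partners and targets had fitted ratios below 0 as well. Of 6 tested genes of B-MYB and the MuvB core, 6 were below 0, as were 45.1% of all genes, with a median of -0.16. The highest of them was at -0.0014, and 3 of the 6 were below 0 on all 5 arrays. Lin54, which encodes the subunit that reads the CHR element, was at -0.28 (SE 0.054), Lin9 at -0.28 (SE 0.065) and Mybl2, the B-MYB gene, at -0.19 (SE 0.056). All 10 tested FOXM1 targets were below 0 on all 5 arrays, against 6.32% of all genes, with a median of -0.29. The Aurora B gene Aurkb was at -0.36 (SE 0.038), the kinetochore motor gene Cenpe at -0.55 (SE 0.062) and Cdc20, the activator of the anaphase-promoting complex, at -0.29 (SE 0.033). Cenpf, a kinetochore gene named after its values were seen, was the lowest of these lists at -0.84 (SE 0.10). Without replicate 2 limma called 9 of the 10 targets lower, where it called 2.5% of all genes, and with arrays scaled to the same spread 7, where it called 1.56%. Without replicate 2 and with no dye effect it called 0 of the 10, and 0% of all genes. These lists were drawn up with earlier results of these data known, in which mitotic genes were low.

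Cyclins and CDKs with other tasks were spread around 0. Of 13 tested cyclin genes outside mitosis 6 were below 0, with a median of 0.012 that turned to -0.012 without replicate 2 and lay between -0.0087 and -0.00022 with scaled, quantile-normalized or weighted arrays. The lower ones by p were the G1/S cyclin genes Ccne2, at -0.34 (SE 0.073), and Ccne1, at -0.13 (SE 0.036), followed by Ccng2 at -0.21 (SE 0.065), which was above 0 on replicates 1 and 3. Of 17 tested CDK genes other than Cdk1, 10 were below 0, with a median of -0.0078 and a range of -0.070 to 0.15, while Cdk1 was at -0.30. Cdk5, the CDK of neurons, was at 0.15 (SE 0.055) and above 0 on 5 of 5 arrays, Cdk18 was at 0.078 (SE 0.033) and Cdk13, of transcription, at -0.068 (SE 0.034). Without replicate 2 limma called 1 of the 13 cyclin genes lower, Ccne2, where 2.5% of all genes were, and 0 of the 17 CDK genes in either direction. In that setting 96 of the 11191 genes were called higher. Array weights called 3 of the cyclin genes lower, Ccne1, Ccne2 and Ccng2, where 6.41% of all genes were. They called 1 of the 13 cyclin genes higher, Ccng1, and 1 of the 17 CDK genes, Cdk5, where 622 of the 11191 genes were.

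**Figure D3:**
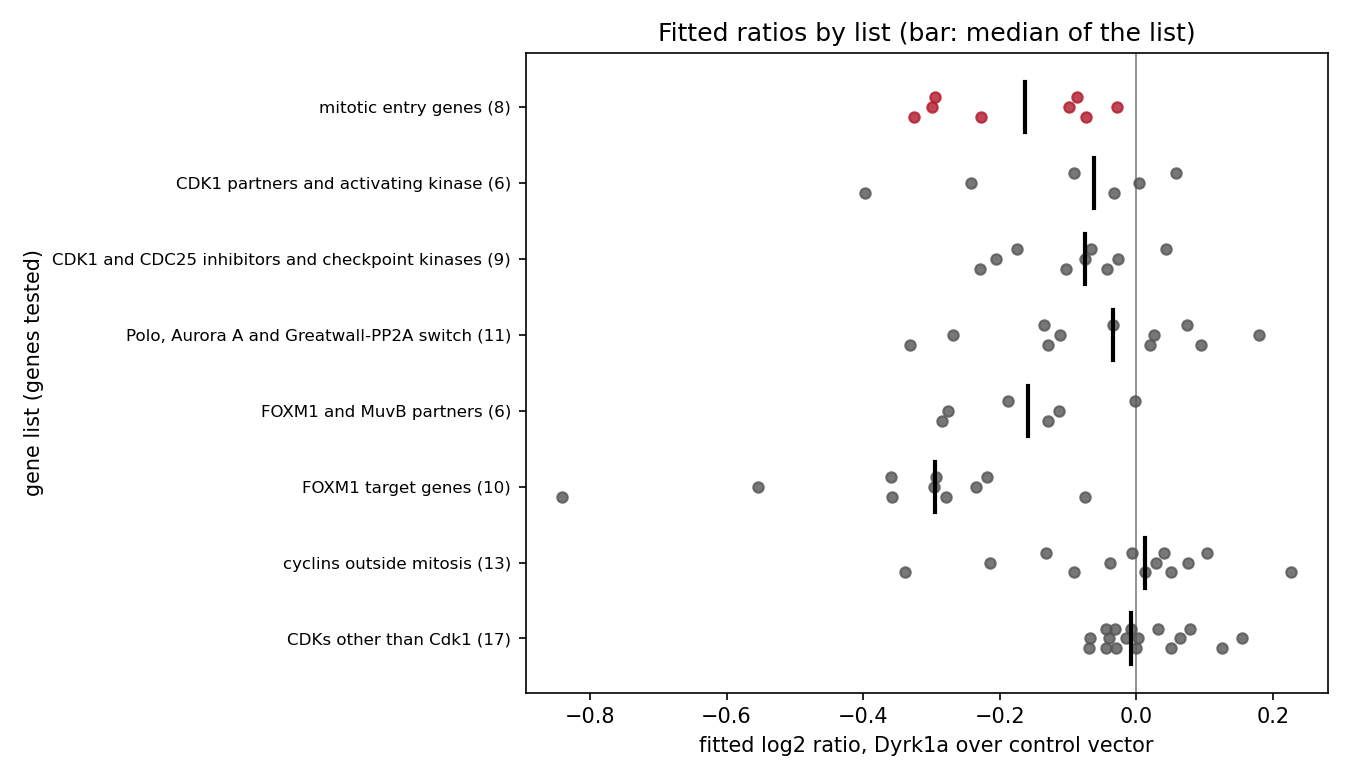
Fitted log2 ratios of Dyrk1a over control vector (x axis) for the mitotic entry genes, in red, and 7 lists of related genes, in grey (y axis, with the number of genes tested). Each point is a gene and each black bar a list's median. FOXM1 targets lie lowest, with a median of -0.29, and CDKs other than Cdk1 lie between -0.070 and 0.15.

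The genes whose ratios lay closest to those of Cdk1 over the 5 arrays, by root mean square difference among all genes tested, were Cdc20, Sapcd2, Chtf18, Fanci and H2az2. Their distances were 0.028, 0.038, 0.045, 0.047 and 0.051 on the log2 scale. Cdc20 read -0.31, -0.34, -0.37, -0.27 and -0.23 in replicates 1 to 5. Chtf18 encodes a clamp loader subunit, Fanci a Fanconi anaemia DNA repair protein and H2az2 a histone variant, and their fitted log2 ratios were -0.34, -0.31 and -0.29. Sapcd2 was at -0.29. Among the mitotic entry genes the nearest to Cdk1 was Foxm1, the 45th nearest of all genes at 0.10, followed by Ccna2 at 0.13 and Ccnb2 at 0.13, while Wee1 lay at 0.31.

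Across 15 other settings of the processing, the fitted log2 ratio of every mitotic entry gene kept its sign. Where probes were tested singly, this holds for each gene's probe of smallest p. Cdc25b probe 34192, fitted at 0.049 there, had the other sign. Cdk1 ran from -0.32 to -0.18, Ccna2 from -0.34 to -0.27, Ccnb2 from -0.26 to -0.19 and Foxm1 from -0.37 to -0.30. Wee1 ran from -0.058 to -0.0089 and Cdc25a from -0.13 to -0.020. The limma adjusted p was under 0.05 in 4 of the 15 settings for Cdk1, Ccna2 and Foxm1, in 3 for Ccnb2, in 1 for Cdc25b and Cdc25c, and in 0 for Cdc25a and Wee1.

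**Figure D4:**
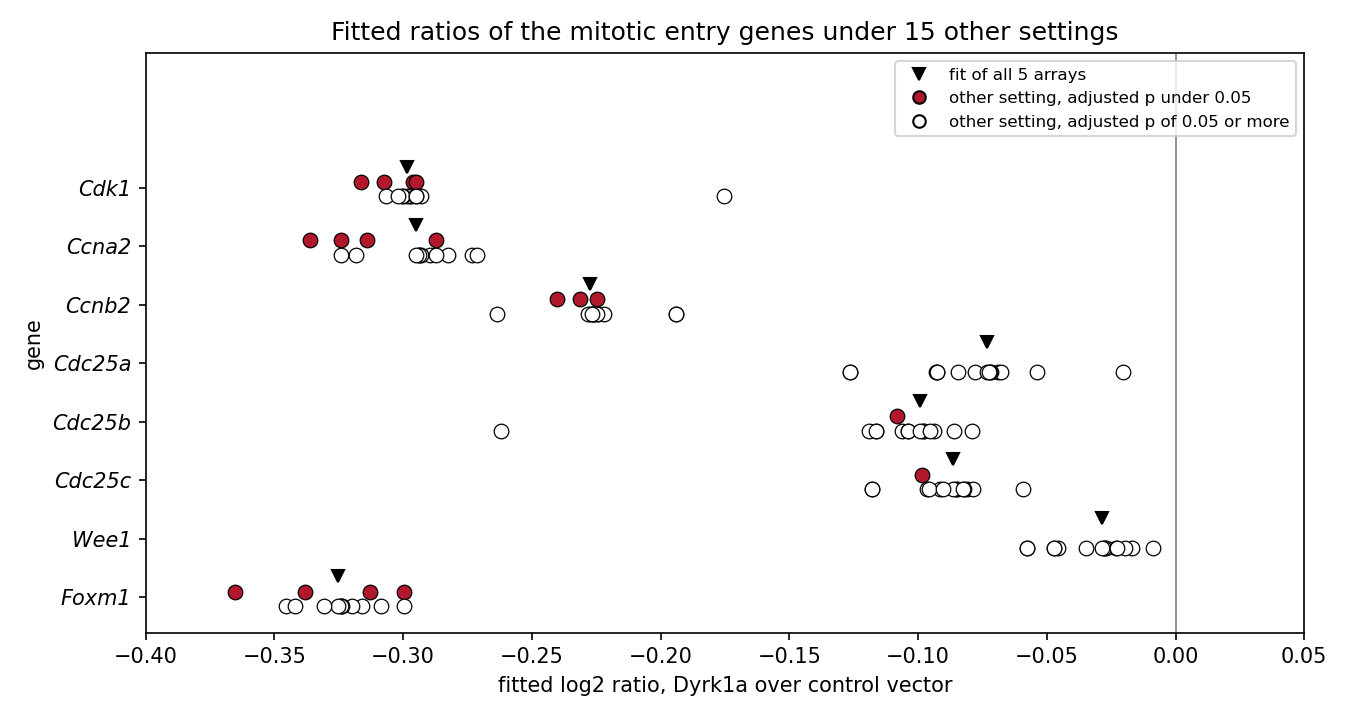
Fitted log2 ratios of Dyrk1a over control vector (x axis) for the 8 genes (y axis) in the fit of all 5 arrays (black triangles) and in 15 other settings (circles, red where the limma adjusted p was under 0.05). Every circle lies below 0, and those farthest from the fit of all arrays are Cdk1 at -0.18, with whichever probes were measured, and Cdc25b at -0.26, with its probe of smallest p.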

How the data were processed

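The deposited values were log2 ratios of two-colour Agilent whole mouse genome arrays, 1 table of 44290 features and 5 columns, in the form the authors deposited. The table held 0 columns of other samples. The log base and the direction were not stated: the log2 scale was read from the range of the deposited values, and the direction, Dyrk1a over control vector in every column, from the Dyrk1a probe, which was above 0 in both dye orientations. Scanning, background correction and normalization are not given in the sources used here. Per the labels, RNA was extracted with Trizol and labelled with a linear amplification kit. No intensities were used, so dim probes could not be filtered, and the number of arrays limits the precision. The arrays are called independent in the series' design text, and p-values measure the spread between them.

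Of the 44290 features, 32042 named 1 gene, 47 several and 12201 none in the platform annotation, and 31906 of those naming 1 gene were matched by Entrez identifier to a RefSeq table of GRCm38.p6, which gave their symbols. A gene's value was the mean of its probes measured on all 5 arrays. The median over the 14307 tested features, 11191 of them genes, was subtracted from each array. The model, fitted with limma 3.58.1 under R 4.3.3, held the Dyrk1a effect and a dye effect. Its moderated two-sided p-values were Benjamini-Hochberg adjusted over all tested features, with 0.05 as the threshold. Leaving out an array kept the same genes and probes. The fit was tested on simulated data. Other settings dropped the dye effect or the centring, scaled, quantile-normalized or weighted the arrays, tested probes singly, changed which probes were kept, made the empirical Bayes step robust, or left out an array. The genes named were the 9 chosen genes, Dyrk1a, the 3 of smallest p in each list, and the 5 nearest to Cdk1. Cenpf and Ccng1 were named outside this rule, after their values were seen. The genes and lists were chosen with earlier results of these data known. Python 3.11.15 with pandas 2.3.3 and matplotlib 3.10.9 prepared the tables and plots.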

Additional observations from a re-analysis of the deposited data

How the results depend on the processing

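In the fit of all 5 arrays 1 gene rose, Dyrk1a, and 0 fell, with 714 genes lower and 587 higher at an unadjusted p under 0.05. When arrays were scaled to 1 common spread, 43 genes were called higher and 175 lower, 4 mitotic entry genes among the lower ones. Quantile normalization gave 47 and 190, also with 4, and array weights 622 and 717, with 6. With 1 array left out, higher genes ran from 0 to 96, lower genes from 0 to 280, lower mitotic entry genes from 0 to 3, those below 0 on every remaining array from 5 to 8, and their median log2 ratio from -0.17 to -0.16. The highest of these counts were without replicate 2. Without replicate 2 and with no dye effect 0 genes were higher and 8 mitotic entry genes were below 0 on every array. With features on at least 4 arrays 0 genes were higher, as Dyrk1a then averaged in a probe near 0. Taking each gene's probe of smallest p moved the median of the mitotic entry genes to -0.24 and gave 1 of them, Cdc25b, a dye effect past the threshold, against 0 in the gene means. Averaging whichever probes were measured moved the median to -0.14, as the second Cdk1 probe entered. By gene mean or probe of smallest p, no mitotic entry gene changed sign or was called higher in any of these settings. Each array is itself 1 Dyrk1a sample against 1 control sample, so testing the log2 ratios against 0 compared the samples in pairs. All 5 arrays form 1 group. A natural log in place of log2 would scale every ratio alike and change no p-value or sign.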
